A study of Mus musculus with 9 samples.

Results

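The data described here are the transcripts of 8 genes that are made in blood cells and were measured in whole brain. They are the 4 adult hemoglobin chains (Hba-a1, Hba-a2, Hbb-bs and Hbb-bt), 2 further red cell genes (Alas2 and Slc4a1) and 2 neutrophil genes (S100a8 and S100a9). The genes were chosen by name from the deposited table of raw counts, whose Ensembl identifiers were matched to mouse symbols, and make up 8 of 49315 genes in that table. All 8 were tested, but the filter asked for about 10 counts in at least 4 libraries, which Slc4a1, S100a8 and S100a9 reached in 3, 2 and 1 young and in all 4 old libraries. These 3 genes thus entered the test through the old brains. PolyA-selected RNA from whole brains of wild-type male C57BL/6J mice was sequenced for 5 young animals aged 3 months and 4 old animals aged 33 months. By the labels the groups differed in age only, with no treatment or transgene. Each library is 1 brain, between 14229259 and 21150439 counts fell on genes in each, and replicates of an age differed by more than sampling noise. The study's methods describe a wash of the brains in PBS and name no perfusion, so blood held in vessels and blood cells within the tissue cannot be told apart. The comparison asks how far the abundance of these transcripts differed with age, and whether the genes kept their proportions to each other within each library.

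Hemoglobin is a tetramer of α and β chains around heme, and red cell precursors make it in large amounts before the nucleus is lost. Circulating reticulocytes still carry globin mRNA. Alas2 is the erythroid form of the enzyme that starts heme synthesis, and Slc4a1 encodes band 3, the anion exchanger of the red cell membrane. S100A8 and S100A9 are calcium-binding proteins that pair as calprotectin, are abundant in the cytosol of neutrophils and act on TLR4 and RAGE when released.

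The α globin copies lie on the plus strand of chromosome 11 (GRCm38), Hba-a1 at chr11:32283511-32284465 and Hba-a2 at chr11:32296489-32297298. Hbb-bs at chr7:103826534-103828096 and Hbb-bt at chr7:103812524-103813996 lie on the minus strand of chromosome 7. Alas2 spans chrX:150547375-150570638 on the plus strand and overlaps Apex2 and Mir3620 on the opposite strand. Slc4a1 lies at chr11:102348824-102366203 on the minus strand. The S100 genes are neighbours on chromosome 3, S100a8 at chr3:90668978-90670035 on the plus strand and S100a9 at chr3:90692632-90695721 on the minus strand. In each case the counts cover exons of the whole gene, and no gene was split into isoforms.

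Sequence in front of the RefSeq start is shown for globin genes of both kinds, Alas2 and S100a9. It lets the promoter elements of the red cell and neutrophil genes be compared. The stretches come from the RefSeq promoter table (GRCm38.p6), which matched 7 of the 8 members and had no entry for Slc4a1. For Hbb-bs and Hbb-bt the gene spans given above begin farther upstream than the RefSeq start. The Hbb-bs stretch therefore lies inside its gene span, and the Hbb-bt stretch overlaps its span. They are written 5′ to 3′ on the gene's strand, and capitals mark 4 elements, each searched on both strands. They are the TATA box core (TATAA), the CCAAT box, which NF-Y binds, the CACCC box, which Krüppel-like factors such as KLF1 bind, and the core bound by GATA factors such as GATA1 (GATAA). The Hba-a2 stretch lies at chr11:32296372-32296488, the Hbb-bs stretch at chr7:103827992-103828021, the Hbb-bt stretch at chr7:103813986-103814015, the Alas2 stretch at chrX:150547319-150547348 and the S100a9 stretch at chr3:90695722-90695841.
Hba-a2: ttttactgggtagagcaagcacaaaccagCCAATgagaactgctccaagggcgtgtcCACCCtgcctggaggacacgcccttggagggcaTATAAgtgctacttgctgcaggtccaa
Hbb-bs: ccaCACCCtggtaagggCCAATctgctcac
Hbb-bt: taaCACCCtggcATTGGCCAATctgctcag
Alas2: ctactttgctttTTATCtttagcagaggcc
S100a9: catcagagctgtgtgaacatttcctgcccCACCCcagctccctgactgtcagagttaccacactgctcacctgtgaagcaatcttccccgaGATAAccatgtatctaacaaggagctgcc

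Over the 250 bases before the RefSeq start, each of the 4 globin genes held at least 1 match to all 4 elements. In Hbb-bs and Hbb-bt the CACCC stood in front of the CCAAT, with an identical TGG after it, and in Hbb-bt an ATTGG, the CCAAT of the other strand, adjoined the CCAAT. In the Hba-a2 stretch CCAAT stood in front of CACCC. The Alas2 stretch holds GATAA on the other strand (TTATC). S100a8 had only a TATAA match, and S100a9 had CACCC and GATAA. Among 32851 promoters of the same length, 22.8% held TATAA, 33.8% CCAAT, 52.0% CACCC and 22.6% GATAA, so single matches are common. The upstream windows of Hba-a1 and Hba-a2 shared an identical run of 247 of 250 bases, while the longest run shared by Hbb-bs and Hbb-bt was 14 bases. These matches describe letters in a window and were not tested for binding.

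The close copies also bear on the counts themselves, since the authors counted uniquely mapped reads only. Of all 150-base windows in its transcripts (150 bases being the read length), Hba-a1 shared 57.0% and Hba-a2 73.1% with the other α gene, and Hbb-bs shared 45.6% and Hbb-bt 50.7% with the other β gene. A read that lies wholly in such a window can be given to a copy only through its mate. Levels of single copies are therefore uncertain. Alas2 shared 6.80% of its windows with Apex2, and Slc4a1, S100a8 and S100a9 shared none with any other gene.

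All 8 transcripts were more abundant in old brains. By edgeR's quasi-likelihood test calling genes whose adjusted p was under 0.05 and whose log2 fold change exceeded 0.58 in size, 8 of 8 members rose. Of the 18492 genes tested, 2.68% were called, 2.28% as higher and 0.400% as lower in old brains. By the adjusted p alone 8 of 8 members passed as well, against 11.0% of all genes and 6.20% that were higher, and a log2 fold change above 0 was seen in 8 of 8 members and 50.0% of all genes. The 4 globins and Alas2 rose 2.16- to 2.55-fold, and Slc4a1, S100a8 and S100a9 rose 8.87- to 23.6-fold, with old replicate 4 highest for each of the 8. The count of 8 includes Slc4a1, S100a8 and S100a9, which passed the filter through the age in which they were high, and the other 5 members reached its minimum in every library. In the bulk tissue, a larger number of blood cells and more RNA per cell cannot be told apart. With edgeR's robust option, added after the data were seen, 3 of 8 members (Hba-a1, Hbb-bs and Alas2) were called, and without old replicate 4 the count was 6 of 8.

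Hbb-bs, an adult β chain gene, was the most abundant member per length, with a median of 155.1 TPM in young and 333.9 TPM in old brains. In CPM (counts scaled to the TMM-adjusted library size) it stood at 47.4, 43.0, 42.8, 49.0 and 53.1 in young replicates 1 to 5 and at 123.3, 62.4, 195.6 and 82.6 in old replicates 1, 3, 4 and 5. Every old brain was above every young brain, and the old values spread 3.13-fold from lowest to highest against 1.24-fold in the young. The log2 fold change was 1.31 ± 0.24 (SE; edgeR, adjusted p = 0.0037, 5 young and 4 old mice). Hbb-bt, the other adult β chain gene, had 7.26, 9.07, 6.46, 9.61 and 9.33 CPM in the young and 23.2, 8.53, 35.8 and 11.7 CPM in the old brains. Old replicate 3 lay within the young range and the other 3 old brains above it. Its log2 fold change was 1.26 ± 0.32 (edgeR, adjusted p = 0.020), and the call was lost when any of young replicate 1, old replicate 1 or old replicate 4 was left out (adjusted p = 0.052, 0.051 and 0.054).

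Hba-a1, an α chain gene, had 28.5, 26.5, 26.3, 32.5 and 34.0 CPM in young and 83.1, 38.8, 123.9 and 53.9 CPM in old brains. The ages did not overlap, and the order of the old brains was that of Hbb-bs. The log2 fold change was 1.35 ± 0.24 (edgeR, adjusted p = 0.0035). Hba-a2, the second α chain gene, had 7.89, 8.57, 7.15, 8.98 and 13.2 CPM in young and 22.9, 11.002, 37.0 and 13.9 CPM in old brains. Young replicate 5 stood above old replicate 3, so that 3 of 4 old brains exceeded all young ones. Its log2 fold change was 1.23 ± 0.29 (edgeR, adjusted p = 0.014). Summed over both copies, α globin transcripts ranged from 33.4 to 47.2 CPM in young and from 49.8 to 161.0 CPM in old brains, and β globin transcripts from 49.3 to 62.4 and from 70.9 to 231.4 CPM.

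Of the red cell genes other than globins, Alas2 rose 2.16-fold and Slc4a1 8.87-fold. Alas2 had 4.18, 4.20, 3.44, 5.60 and 6.30 CPM in young and 9.56, 7.12, 16.5 and 7.63 CPM in old brains. No old brain fell within the young range, and the log2 fold change was 1.11 ± 0.24 (edgeR, adjusted p = 0.0086). Slc4a1 had 0.575, 0.387, 0.825, 0.386 and 0.679 CPM in young brains and 2.39, 0.776, 15.4 and 0.998 CPM in old brains, from 7 to 12 counts in each young library and 281 in old replicate 4. Old replicate 4 was 26.9-fold above the young mean and old replicate 1 4.19-fold, while old replicate 3 lay below young replicate 3. The log2 fold change of 3.15 ± 0.80 (edgeR, adjusted p = 0.021) fell to 1.35 (adjusted p = 0.044) without old replicate 4.

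The neutrophil pair had the largest fold changes and the widest spread of the 8 members. S100a9 had 0.366, 0.221, 0, 0.531 and 0.556 CPM in young and 1.70, 0.917, 28.5 and 1.82 CPM in old brains. The 0 in young replicate 3 allows a level of up to 0.211 CPM (3 of that library's counts, before TMM scaling and for counting error only). All old brains lay above all young ones, and old replicate 4, with 521 counts against 13 to 32 in the other old libraries, stood 85.1-fold above the young mean. The log2 fold change was 4.56 ± 1.06 (edgeR, adjusted p = 0.014) with all mice and 2.09 (adjusted p = 0.012) without old replicate 4. S100a8 had 0.105, 0.277, 0.550, 0.483 and 0.618 CPM in young and 1.43, 0.846, 21.01 and 0.587 CPM in old brains. Old replicate 5 lay inside the young range, and old replicate 4 was 51.7-fold above the young mean. The log2 fold change was 3.92 ± 1.02 (edgeR, adjusted p = 0.025), and 1.28 with an adjusted p of 0.086 without old replicate 4. The call for S100a8 was also lost without young replicate 1, 2 or 5 (edgeR, adjusted p = 0.065, 0.054 and 0.051), and that for Slc4a1 without young replicate 1 (0.052).

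**Figure D1:**
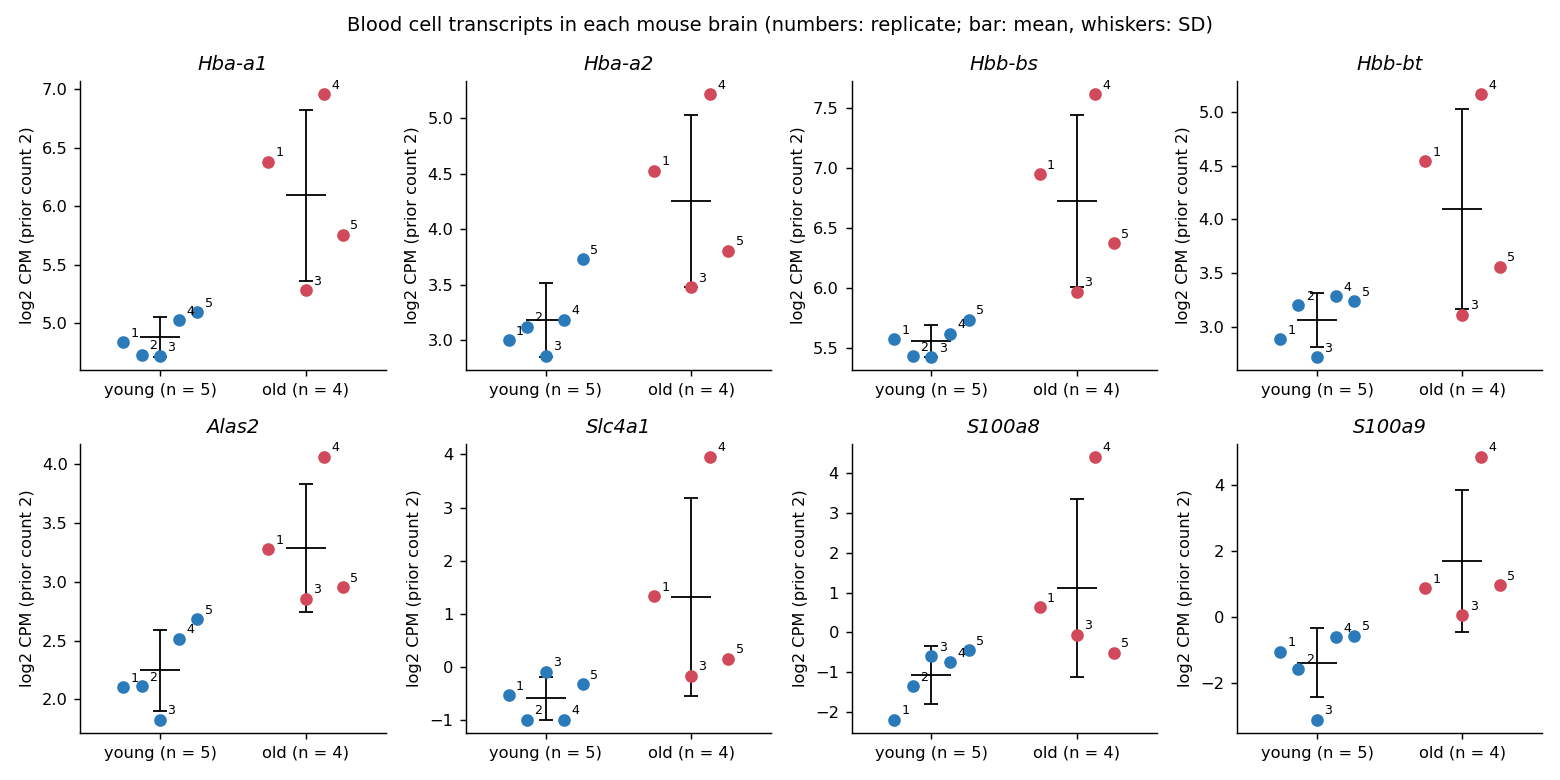
Log2 CPM (prior count 2) of each of the 8 transcripts in 5 young and 4 old brains, with replicate numbers beside the points, the mean as a bar and the SD as whiskers. Old replicate 4 is the highest point in all 8 panels, and in the panels of Hba-a1, Hbb-bs, Alas2 and S100a9 no old brain falls into the young range.

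In CPM, 4 of the 8 members (Hba-a1, Hbb-bs, Alas2 and S100a9) had every old brain above every young brain, against 6.50% of all genes tested. S100a9 passed the filter through the old brains, so its place among the 4 was in part set by that filter. Hba-a1, Hbb-bs and Alas2 reached the minimum in every library. In the deposited TPM values Hba-a1 and Hbb-bs overlapped between the ages. Hba-a1 reached 110.2 TPM in young replicate 3 and 97.9 TPM in old replicate 3, and Hbb-bs 190.0 and 166.6 TPM in the same mice. Alas2 and S100a9 remained apart in TPM, Alas2 narrowly with at most 5.88 TPM in young and at least 6.08 TPM in old brains. The median log2 fold change of all tested genes was -0.14 on log2(TPM + 1) and -9.2e-05 in edgeR.

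With the spread pooled over both ages, the members varied among mice of an age more than most genes. For Hba-a1 and Hbb-bs it was larger in the old brains. Their old CPM values spread 3.20- and 3.13-fold from lowest to highest, against 1.30- and 1.24-fold in the young. The edgeR test used 1 estimate of the spread for both ages. The SD of log2 CPM within an age was 0.44 for Alas2, 0.48 for Hbb-bs, 0.49 for Hba-a1, 1.26 for Slc4a1, 1.56 for S100a8 and 1.61 for S100a9, beside a median of 0.13 over all tested genes. Alas2, the least variable of the 8, stood at percentile 92.3 of all tested genes and S100a9 at 99.9. The biological coefficient of variation in edgeR was 23.2% to 31.3% for the globins and Alas2 and 66.8% to 84.1% for Slc4a1, S100a8 and S100a9, against a median of 7.24%.

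The old brains did not all show the rise to the same degree. Old replicate 4 stood 3.48- to 4.29-fold above the young mean for the globins and Alas2, and old replicate 1 2.01- to 2.81-fold. Old replicate 3 stood 1.02- to 1.5-fold and old replicate 5 1.40- to 1.82-fold above it. With both old replicates 1 and 4 left out, a comparison of 2 old with 5 young brains added after the data were seen, Hba-a1 (log2 fold change 0.65), Hbb-bs (0.63) and S100a9 (1.98) were still called, while the values for Hba-a2 and Hbb-bt were 0.45 and 0.28 and did not pass (edgeR, adjusted p = 0.18 and 0.36). Alas2 at 0.63, Slc4a1 at 0.67 and S100a8 at 0.82 did not pass either (adjusted p = 0.071, 0.34 and 0.39).

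**Figure D2:**
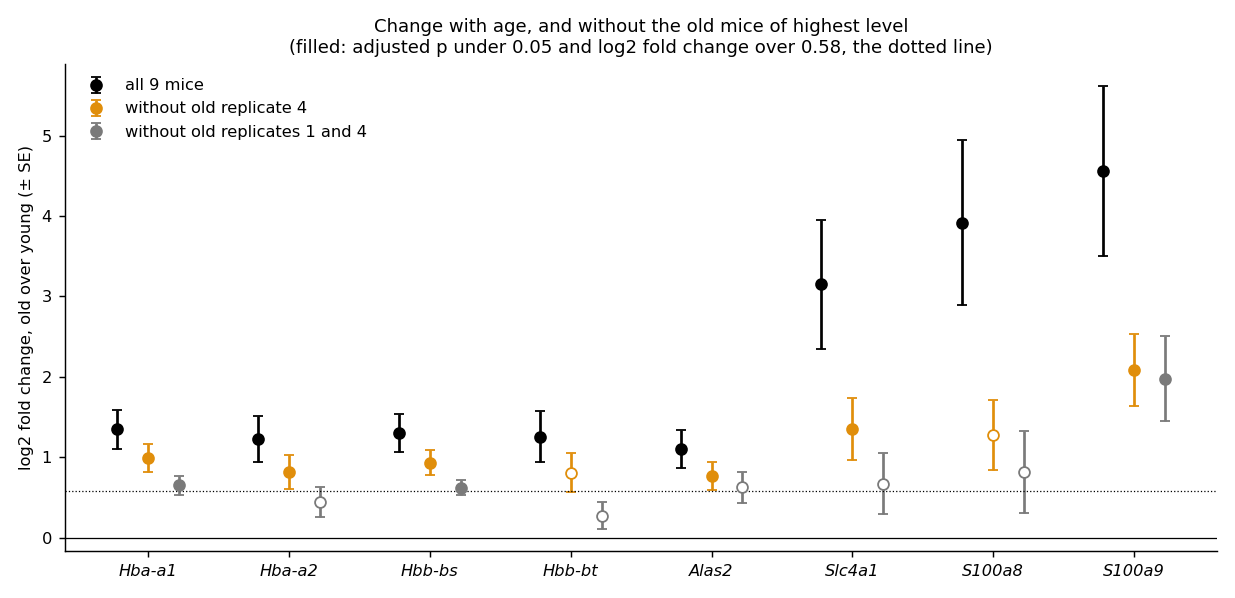
Log2 fold change of old over young brains with its standard error for each transcript, for all 9 mice, without old replicate 4, and without old replicates 1 and 4. All 8 values lie above 0 in each set, and filled points, which pass an adjusted p of 0.05 and a log2 fold change of 0.58 (dotted line), number 8, 6 and 3.

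Ratios between members were then formed within each library, where depth cancels, as the log2 ratio of counts with 0.5 added to each. The ratio of Hba-a1 to Hbb-bs, an α to a β chain, was the steadiest. It was 0.569 to 0.627 in TPM in young and 0.588 to 0.637 in old brains, while Hbb-bs itself ranged from 42.8 to 195.6 CPM. The mean log2 ratio was -0.67 ± 0.056 (SD, n = 5) in young and -0.63 ± 0.051 (n = 4) in old brains, a difference of 0.041 (two-sided exact permutation test, p = 0.28, adjusted over 7 ratios 0.44). The ratio of the α copies, Hba-a1 to Hba-a2, differed by 0.13 (exact permutation p = 0.34) and that of the β copies, Hbb-bs to Hbb-bt, by 0.13 (p = 0.38), both adjusted to 0.44. In TPM, Hba-a1 exceeded Hba-a2 by a median of 2.97-fold in young and 2.93-fold in old brains, and Hbb-bs exceeded Hbb-bt by 5.21- and 5.73-fold. These differences between the ages were smaller than the spread between mice.

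Alas2 relative to Hbb-bs differed by -0.12 on the log2 scale (exact permutation p = 0.48), with a median TPM ratio of 0.0313 in young and 0.0283 in old brains. Slc4a1 relative to Hbb-bs was higher by 0.87 in old brains, less than the pooled SD of 0.90 (exact permutation p = 0.18, adjusted 0.44). The TPM ratio was 0.0123 in old replicate 4 and 0.00304 in old replicate 1, against at most 0.00303 in any young brain. Without old replicate 4 the difference of the log2 ratios was 0.26. S100a9 relative to Hbb-bs was higher in 4 of 4 old brains than in any young brain. The log2 ratio differed by 2.41 with a pooled SD of 1.59 (exact permutation p = 0.0079, the smallest that 5 against 4 mice allow), and adjusted over 7 ratios the p was 0.056. This ratio rests on the same S100a9 counts that took the gene past the filter in old brains, so it is no separate evidence. Without old replicate 4 the difference was 1.63 and without young replicate 3 it was 1.72. No adjusted p under 0.05 was possible for 1 ratio alone at this number of mice. Its TPM ratio ranged from 0 to 0.0160 in young and from 0.0203 to 0.214 in old brains. Young replicate 3, which has no S100a9 count, had the lowest of these values. S100a8 relative to S100a9 differed by -1.16, within a pooled SD of 1.65 (exact permutation p = 0.33, adjusted 0.44), and by -0.27 without young replicate 3, whose ratio rests on the 0.5 added to a count of 0.

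**Figure D3:**
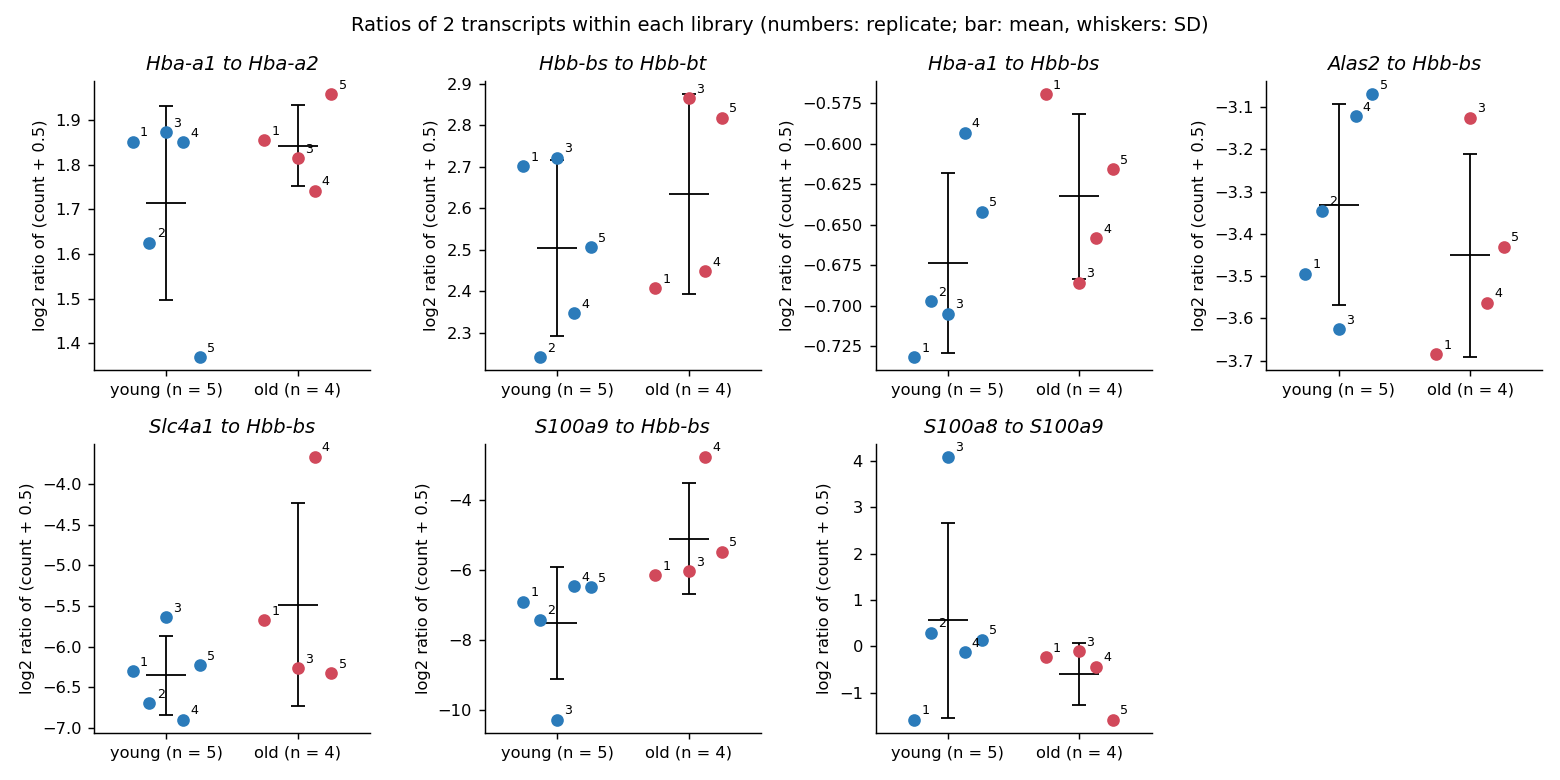
Log2 ratio of 2 transcripts within each library, from counts with 0.5 added, for 5 young and 4 old brains, with the mean as a bar and the SD as whiskers. The Hba-a1 to Hbb-bs panel spans less than 0.2 on its axis, and in the S100a9 to Hbb-bs panel every old brain is above every young brain.

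Across the 9 mice, the other members were compared with Hbb-bs after the mean of each age was subtracted from log2 CPM, so that the difference between the ages does not enter. Hba-a1 followed it with Pearson's r = 0.994 and Spearman's rho = 1.0 (exact permutation over all pairings of the mice, adjusted p = 1.9e-05 and 3.9e-05). For Hba-a2, r was 0.952 and rho 0.967 (exact permutation, adjusted p = 0.00021 and 0.00039). Hbb-bt had an r of 0.961 and a rho of 0.967 (exact permutation, adjusted p = 0.00039 for both). For Alas2, r was 0.871 and rho 0.917 (exact permutation, adjusted p = 0.0014 and 0.0023). The points share library and depth, and old brains deviate from their mean more than young ones do. The permutation went through all pairings and exchanged these deviations between the ages despite their unequal spread. For all members the p-values of the relations are therefore approximate and may be too small.

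Slc4a1, S100a8 and S100a9 had r = 0.918, 0.832 and 0.844 (exact permutation, adjusted p = 0.0021, 0.0097 and 0.0082). Their ranks followed less closely, with rho = 0.633, 0.667 and 0.683 (exact permutation, adjusted p = 0.076, 0.069 and 0.069). Old replicates 3 and 4 lay farthest from the median of Hbb-bs once the age means were subtracted. Without them, r was 0.979 for Hba-a1, 0.874 for Hba-a2, 0.850 for Hbb-bt and 0.736 for Alas2. It was 0.603, 0.505 and 0.439 for Slc4a1, S100a8 and S100a9, so that on this scale the relation of these 3 genes with Hbb-bs rested largely on those mice. With age means kept, old replicates 1 and 4 lay farthest, and without them r for the same 3 genes was 0.645, 0.471 and 0.877.

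**Figure D4:**
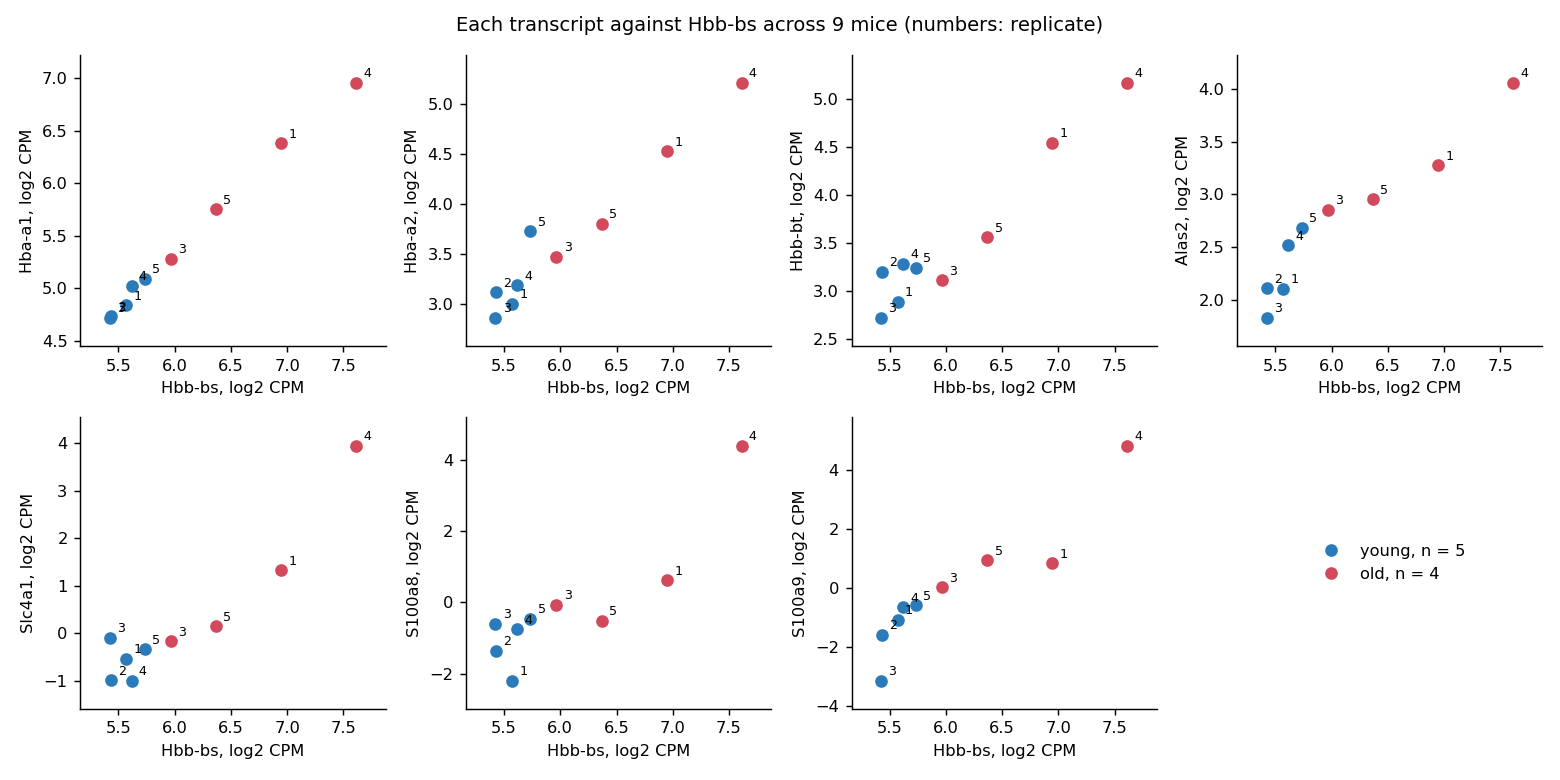
Log2 CPM of each of the other 7 transcripts against that of Hbb-bs in the 9 brains, with replicate numbers beside the points. Hba-a1 lies close to a line over young and old brains alike, whereas for Slc4a1, S100a8 and S100a9 old replicate 4 stands far above the other 8 brains.

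The tested genes whose log2 CPM, with the age means subtracted, was most like the mean of the 4 globins over the 9 mice were Susd6 (r = 0.965), Fbln7 (0.964), Mab21l1 (0.951), Gabpb1 (0.944) and Pdcd2l (0.943). For the mean of S100a8 and S100a9 they were Susd6 (0.961), Mt2 (0.952), Dnali1 (0.952), Fbln7 (0.931) and Mab21l1 (0.928). These are the highest of 18492 values and are given as a description. Mt2 encodes a metallothionein, which binds zinc and copper. Its level was 42.3 to 53.2 CPM in young brains and 56.4, 49.5, 79.4 and 50.7 CPM in old replicates 1, 3, 4 and 5, again highest in old replicate 4.

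Further genes of the red cell were taken from a list. Of 26 genes, 10 were tested and 3 rose, with a median log2 fold change of 0.041 over the 10. The 3 were Ube2l6, an ISG15-conjugating enzyme (log2 fold change 0.87, edgeR adjusted p = 0.0060), Isg20, an exonuclease (1.09, 0.0071), and Tent5c, a poly(A) polymerase (0.91, 0.032). Ube2l6 and Isg20 are induced by interferon and are expressed outside the red cell lineage. Ermap, an erythroid membrane protein, had a log2 fold change of 1.04 and did not pass (adjusted p = 0.12). Without old replicate 4, 2 of the 10 were called. The summed level of the list was 835 to 929 CPM in young and 821 to 965 CPM in old brains. Its largest parts were Sptb (274 to 324 CPM over all brains, log2 fold change -0.0083) and Ank1 (195 to 270 CPM, -0.15). Neither followed the globins, so the sum and the median of the list do not measure red cell content.

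The genes that define red cell precursors were mostly too low for the test, since few libraries reached the minimum count. Of the 25 list genes with any count, 20 were highest in old replicate 4, where 11.9% of all genes with a count are highest. The following were chosen after their values were seen. Gata1, the erythroid transcription factor, had 22 counts in old replicate 4 and 0 to 2 in each other library. Rhag, of the Rh complex, had 23 counts against 0 or 1, and Hemgn, an erythroid nuclear protein, 45 against 0 to 6. The embryonic globins Hba-x and Hbb-bh1 and the Hbb-bh2 gene had no count in any library. Hbb-y, also embryonic, had at most 2.

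Of 9 other globin genes listed, 3 were tested and 0 were called by edgeR or by DESeq2, and 0 had an unadjusted p under 0.05. Neuroglobin (Ngb), a neuronal globin, had a log2 fold change of -0.19, cytoglobin (Cygb) 0.046 and myoglobin (Mb) -0.36 (edgeR, adjusted p = 0.54, 0.56 and 0.60).

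Of the 12 genes of heme synthesis other than Alas2, all tested, 0 were called by edgeR and by DESeq2, and 4 had an unadjusted p under 0.05, which 26.0% of all genes had. Alas1, the form of the first enzyme used outside the red cell, differed by a log2 fold change of 0.19 (edgeR, adjusted p = 0.016), below the fold required. Fech, which inserts the iron, was at 0.14 (0.064). The median of the list was 0.017, beside 1.11 for Alas2.

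Of 13 tested genes that clear hemoglobin, heme and iron, 2 rose and 0 fell, with a median log2 fold change of 0.41. Ceruloplasmin (Cp), a ferroxidase, rose by 0.63 (edgeR, adjusted p = 0.00025). Cd163, the scavenger receptor for haptoglobin-hemoglobin, is named as the other gene called and rose by 0.69 (edgeR, adjusted p = 0.026). By an unadjusted edgeR p under 0.05, 7 of the 13 were higher and 2 lower. The 2 lower genes, named after their values were seen, were Slc40a1 (-0.38) and Tfrc (-0.18). Neither passed (edgeR, adjusted p = 0.077 and 0.070). The ferritin chains Ftl1 (0.46, adjusted p = 8.2e-05) and Fth1 (0.45, 0.00090) and transferrin (Trf; 0.41, 0.00045) passed the adjusted p but not the fold. Haptoglobin (Hp), which binds free hemoglobin and is named after its values were seen, had a log2 fold change of 1.57 and did not pass (adjusted p = 0.14), with 58 counts in old replicate 4 and 3 to 11 in each other library. The count of 2 became 1 when any of young replicates 1, 2 and 5 or old replicates 1, 3 and 4 was left out. The summed level was 2553 to 2739 CPM in young and 3041 to 3535 CPM in old brains. Fth1 made up most of it, with 1330 to 1480 CPM in young and 1714 to 2178 CPM in old brains. The sum thus reflects mainly that 1 gene.

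Among 36 neutrophil genes beside the S100 pair, 11 were tested and 3 rose, with a median log2 fold change of 0.49. Pglyrp1, a granule peptidoglycan recognition protein, was at 0.86 (edgeR, adjusted p = 0.0052), Lcn2, the siderophore-binding lipocalin, at 2.95 (0.013) and Ngp, a granule protein, at 4.0 (0.027). Pglyrp1 exceeded its young maximum of 6.81 CPM in 3 of 4 old brains, with 9.72, 6.70, 11.9 and 8.69 CPM in old replicates 1, 3, 4 and 5. Ngp had 23.0 CPM in old replicate 4 against 0.470 to 1.86 in the other old brains, and without that mouse its log2 fold change was 1.25 (adjusted p = 0.14). Lcn2 without it was at 2.26 (0.042). Lcn2 and Ngp lay below the filter's cutoff of 0.549 CPM in most young brains. Both thus passed the filter only with the old brains counted. Lcn2 is also made by reactive astrocytes.

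The neutrophil list summed to 23.4 to 38.2 CPM in young brains and to 44.4, 37.0, 124.8 and 35.8 CPM in old replicates 1, 3, 4 and 5. Of the 35 genes with a count, 26 were highest in old replicate 4. Genes of granules made in the bone marrow, chosen after their values were seen, stood out there. Ltf, lactoferrin, had 236 counts in old replicate 4 and 1 to 7 in each other library, and Mpo, myeloperoxidase, had 106 against 0 to 8. Camp, the cathelicidin, had 130 against 1 to 13, and Elane, neutrophil elastase, 47 against 0 or 1. Retnlg, a transcript of mature neutrophils, had 56 against 0 to 5.

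**Figure D5:**
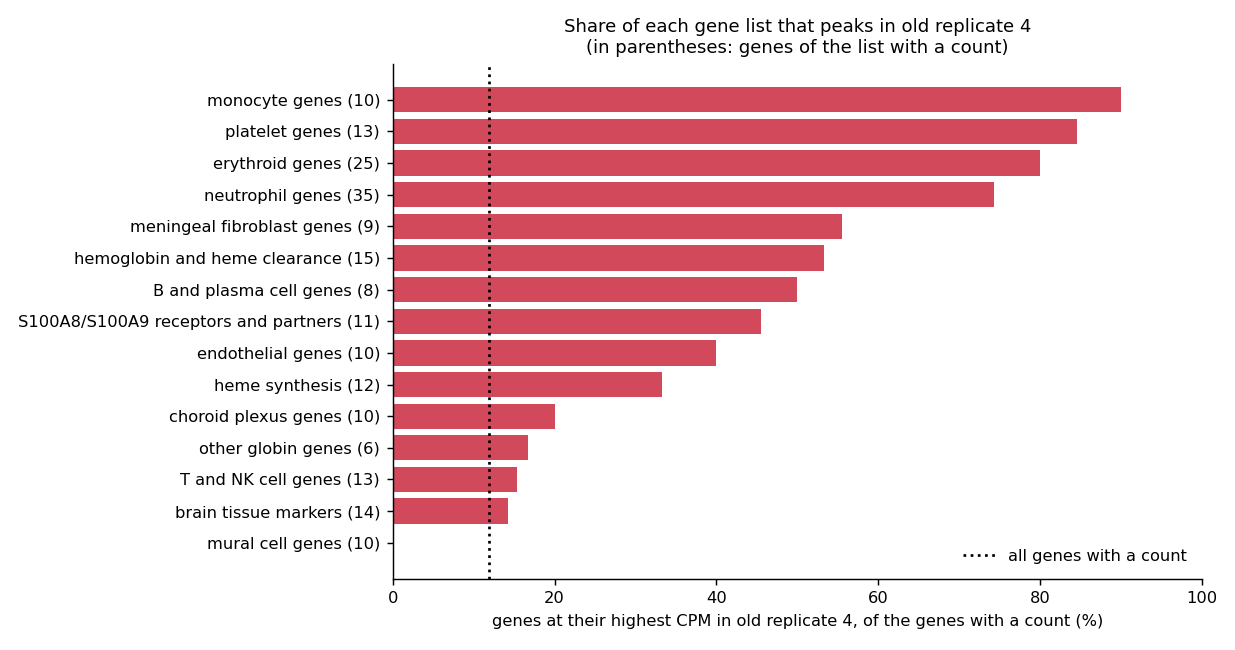
Percent of the genes of each list, among those with a count, whose highest CPM is in old replicate 4, with the share over all genes with a count as a dotted line at 11.9%. Monocyte (9 of 10), platelet (11 of 13), erythroid (20 of 25) and neutrophil (26 of 35) genes lie farthest to the right of the line. Meningeal fibroblast (5 of 9), hemoglobin and heme clearance (8 of 15) and endothelial (4 of 10) genes are among others to its right. In that brain 2 of 14 brain markers and 0 of 10 mural cell genes peak.

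Of the receptors and partners of S100A8 and S100A9, 10 were tested and 3 rose. All 3 encode parts of the phagocyte NADPH oxidase, Ncf4 with a log2 fold change of 1.31 (edgeR, adjusted p = 0.014), Ncf1 with 0.74 (0.015) and Cyba with 0.87 (0.018). Microglia express them as well. Tlr4, a receptor of the pair, was at 0.77 and did not pass (0.065). Without old replicate 4, 1 of the 10, Ncf4, was called (0.93, adjusted p = 0.045), and without young replicate 4, 7 of the 10 were. Young replicate 4 had 131 counts of Cybb, a further oxidase subunit, against 8 to 25 in the other young brains, and 125 of Cd14, a co-receptor of TLR4, against 21 to 37, both named after their values were seen.

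Markers of other blood and vessel cells were read beside these values. Of 6 tested platelet genes 0 were called by edgeR, 2 by DESeq2 and 1 had an unadjusted edgeR p under 0.05. It was Pf4, platelet factor 4, at 1.63 (edgeR, adjusted p = 0.052). The list summed to 19.9 to 20.8 CPM in young brains and to 39.6 CPM in old replicate 4 against 19.6 to 22.3 in the other old brains. Of 3 tested B and plasma cell genes, Igkc, the immunoglobulin κ constant region, rose by 4.40 (edgeR, adjusted p = 0.0018), with 0.0553 to 0.344 CPM in young and 1.06 to 12.1 CPM in old brains, and its log2 fold change was 3.38 without old replicate 4. The young levels of Igkc lay below the filter's cutoff of 0.549 CPM, so this gene too entered the test through the old brains. The 1 tested monocyte gene, F13a1, rose by 1.13 (adjusted p = 0.0044), and the list summed to 2.22 to 3.53 CPM in young and 5.08 to 19.5 CPM in old brains. Of 4 tested T and NK cell genes 0 were called by edgeR and by DESeq2. Trbc2, the 1 gene with an unadjusted p under 0.05, was at -0.31 (adjusted p = 0.16).

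Of 10 endothelial genes, Ly6c1 rose (0.94, edgeR adjusted p = 5.0e-05). Pecam1 at 0.38 (0.0011), Cdh5 at 0.26 (0.024) and Flt1 at 0.25 (0.028) passed the adjusted p only, and the list summed to 269 to 291 CPM in young and 303 to 345 CPM in old brains. Among 10 mural cell and 9 meningeal fibroblast genes 0 were called by edgeR and by DESeq2, while 2 of each had an unadjusted p under 0.05. The mural list summed to 229 to 264 CPM in young and 244 to 286 CPM in old brains. The meningeal list reached 279.8 CPM in old replicate 4, above 183 to 217 CPM in the young and 169 to 229.5 CPM in the other old brains. Col1a1, a collagen chain named after its values were seen, was at 0.092 with all mice and was called as lower without old replicate 4 (-0.60, edgeR adjusted p = 0.014). The choroid plexus list spanned 567 to 738 CPM in young and 467 to 779 CPM in old brains, and Kcne2, a potassium channel subunit, fell by 0.74 (edgeR, adjusted p = 0.0073). The 14 markers of brain tissue, 0 of which were called by edgeR or DESeq2 and 5 of which had an unadjusted p under 0.05, summed to 12692 to 13336 CPM in young and 13253 to 14089 CPM in old brains. The part of each of these in the rise of the 8 transcripts was not tested. Without old replicate 4, all 8 log2 fold changes stayed above 0, between 0.77 and 2.09.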

How the data were processed

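RNA from whole brains of 5 young and 4 old mice was analysed, and 1 further column of per-sample values in each table, which matched no sample used here, entered no computation. The authors trimmed the reads with Trimmomatic, aligned them to GRCm38 with STAR and used featureCounts to assign uniquely mapped reads to exons. The counts were deposited as raw whole numbers for each gene. The deposited TPM values divide the authors' counts by gene length, and the deposited normalized counts are a signal divided by 1 size factor per library by the authors. The submitters' processing notes name DESeq2 and mm10. Strand-specific counting is stated only for stranded libraries, so reads of Alas2 and of its antisense neighbours may not be told apart.

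Genes were filtered with filterByExpr (minimum count 10, minimum total 15), which left 18492, scaled with TMM and tested by quasi-likelihood in edgeR, with p-values adjusted after Benjamini and Hochberg. Calls needed an adjusted p under 0.05 and a log2 fold change above 0.58 in size. Log2 CPM used a prior count of 2. Ratios and relations were tested by two-sided exact permutation and adjusted over 7. For the relations, values with age means subtracted were exchanged between the ages, so those p-values are approximate. R 4.3.3, edgeR 4.0.16, limma 3.58.1 and DESeq2 1.42.0 were used. Of 49315 gene IDs, 48970 had a symbol in GENCODE M21, and 213 of 214 listed genes were matched. The edgeR fit and the permutation test were tested on simulated data. The members and lists were chosen with earlier results of these data known. Beside the members, up to 4 genes per list with the lowest p and the 5 most alike genes are named, and others where stated. Alternatives were other size factors, filters, tools and scales, copies summed, a replicate block and each mouse left out. The robust option and pairs of mice left out were added after the data were seen.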

Additional observations from a re-analysis of the deposited data

Results flagged for a closer look

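Of 30 sets of values of 1 age, 1 held a mouse far from the others by Dixon's criterion, where chance gives about 1.5. It was the log2 ratio of S100a9 to Hbb-bs in young replicate 3, at -10.28 against -7.43 to -6.46 in the other 4 young mice, a gap of 0.746 of the range against a critical value of 0.71. S100a9 had 0 counts in that library, so the value is set by the 0.5 added to each count.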

How the results depend on the processing

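The count of 8 members called was 5 with a filter of at least 1 CPM in at least 4 libraries, which left 5 members tested, 3 with the robust option, 5 without old replicate 4 and young replicate 4, and 3 without old replicates 1 and 4, and it was the same without the fold threshold in each case. With each mouse left out in turn it lay between 5 (without young replicate 1) and 8. DESeq2, the tool of the study, called 6. It gave S100a8 and S100a9 log2 fold changes of 3.88 and 4.61 but no p, so neither could be called. The authors' log2 normalized counts tested with limma gave 6 calls. The 15 list genes called became 7 without old replicates 1 and 4, and 11 to 20 with single mice left out. In 175 alternative values for single members, 152 kept their side of the threshold, 23 lost the call and 0 reversed. Those of Hba-a1 and Hbb-bs passed in all 22 alternatives each. Settings that gave a member no adjusted p, such as DESeq2 for S100a8 and S100a9, are not among the 175. With the copies summed, log2 fold changes were 1.32 for α and 1.30 for β globin (edgeR, adjusted p = 0.0045 for both). A single ratio could not pass alone after adjustment, with all mice or fewer, so the ratio tests say nothing of stability. Single lists also moved, with 1 of 6 platelet genes called without old replicate 3, 2 of 2 monocyte genes without old replicate 5 and 2 of 10 choroid plexus genes without old replicate 1. Same-numbered young and old mice had correlations of 0.17, -0.12, 0.088 and -0.024, too few values to show or exclude a pairing by replicate number. With the replicate block 8 of 8 members and 470 genes in all were called, beside 495. Old replicate 2 was not analysed here. Slc4a1, S100a8 and S100a9 rest on 0 to 12 counts per young library, which limits the precision of their fold changes.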
